A study of Mus musculus with 2 samples.

Results

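The Ifi200 family, also called the PYHIN family, was followed across the bone marrow cells of Col1a1fspKO and WT mice through 7 of its genes, Ifi202b, Mndal, BC094916, Ifi203, Ifi204, Ifi205 and Ifi207. These 7 members were taken from 13211 genes listed in either of the 2 count tables. They were selected on their levels in these same 2 libraries, across cell types and between genotypes, so the differences between libraries below are a description of the genes that were picked for them and carry no test. Under these symbols 6 of the 7 members had a row for Col1a1fspKO and 5 had one for WT, where Ifi202b was not listed. Ifi207 stood in both tables under its older symbol AI607873, which RefSeq gives as a synonym, and those rows were used for it. A gene missing from a table was counted as 0.

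Marrow was rinsed out of the long bones of the hind leg (femur and tibia) at 2 months of age, and sorted live cells were run through the 10x Genomics 3′ kit, version 2, which tags each captured transcript with a unique molecular identifier (UMI). The Col1a1fspKO library came from Fsp1-Cre;Col1a1flox/flox mice, in which the promoter of Fsp1 (S100a4) drives Cre to remove exons 2 to 5 of Col1a1, the gene of the type I collagen α1 chain. The library labelled WT came from Cre-negative;Col1a1flox/flox littermates, so the controls carried the floxed allele as well. Each library was a pool of 2 mice, and each genotype had 1 library, so no test between genotypes was possible, genotype and pool cannot be told apart, and the intervals given here (exact, 95%) cover counting error only.

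PYHIN proteins pair a HIN domain, which binds double-stranded DNA, with a pyrin domain, which holds other pyrin proteins; the genes lie side by side on mouse chromosome 1 and are known for their induction by interferons. Aim2, the best studied relative, senses DNA in the cytosol and builds an inflammasome with the adaptor Pycard. The product of Ifi202b lacks a pyrin domain and is known to restrain Aim2, that of Ifi204 is known as a DNA sensor upstream of type I interferon, and Mndal and Ifi203 encode nuclear proteins of blood cells. In marrow the family is known from monocytes and lymphocytes.

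The genes lie close together. By RefSeq on GRCm38 (the mm10 assembly that the files use), Ifi207 spans chr1:173723424-173741831, Ifi204 chr1:173747293-173767069, Mndal chr1:173857215-173880382, Ifi203 chr1:173920400-173942866, Ifi202b chr1:173962569-173982844 and Ifi205 chr1:174011998-174031755, all on the minus strand. BC094916 matched no entry of the annotations used here and has no position below. GENCODE draws a longer Mndal, chr1:173849126-173942491, that runs over Ifi211 and into Ifi203 on the same strand, so UMIs of Mndal, Ifi211 and Ifi203 may have been split or discarded in counting, and their separate levels are uncertain. The same holds for any near-identical stretches of the other relatives.

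The promoters are shown because the members are known for interferon control, and because they show how alike Mndal and Ifi203 are. RefSeq windows of 300 bases, from 250 before to 50 after the annotated start, were at hand for 5 of the 7 members (GRCm38.p6). Where a gene had several starts, the window with the most motif matches is shown, and among equals the one farther upstream. Capitals mark matches on either strand to GAAANNGAA, the core of an interferon-stimulated response element, or to TTCNNNGAA, the core of an interferon-gamma activated site.
Ifi202b (chr1:173982795-173983094, minus strand): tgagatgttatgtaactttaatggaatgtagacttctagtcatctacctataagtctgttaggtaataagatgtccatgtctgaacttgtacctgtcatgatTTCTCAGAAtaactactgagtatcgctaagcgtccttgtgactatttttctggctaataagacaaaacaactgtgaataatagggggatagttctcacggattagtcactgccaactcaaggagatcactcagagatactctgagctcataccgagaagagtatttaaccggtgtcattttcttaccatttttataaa
Mndal (chr1:173880138-173880437, minus strand): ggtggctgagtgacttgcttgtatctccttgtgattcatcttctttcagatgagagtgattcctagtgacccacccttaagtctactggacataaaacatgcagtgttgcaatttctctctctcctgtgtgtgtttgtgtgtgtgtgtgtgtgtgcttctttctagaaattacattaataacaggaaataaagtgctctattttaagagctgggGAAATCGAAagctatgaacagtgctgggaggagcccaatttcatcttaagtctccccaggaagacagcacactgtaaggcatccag
Ifi203 (chr1:173942443-173942742, minus strand): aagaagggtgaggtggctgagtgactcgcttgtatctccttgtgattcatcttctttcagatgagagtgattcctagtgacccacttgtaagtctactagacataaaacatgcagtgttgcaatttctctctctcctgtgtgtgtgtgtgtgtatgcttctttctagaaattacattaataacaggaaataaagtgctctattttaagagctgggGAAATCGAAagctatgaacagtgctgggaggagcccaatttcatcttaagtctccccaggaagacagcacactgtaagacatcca
Ifi205 (chr1:174031706-174032005, minus strand): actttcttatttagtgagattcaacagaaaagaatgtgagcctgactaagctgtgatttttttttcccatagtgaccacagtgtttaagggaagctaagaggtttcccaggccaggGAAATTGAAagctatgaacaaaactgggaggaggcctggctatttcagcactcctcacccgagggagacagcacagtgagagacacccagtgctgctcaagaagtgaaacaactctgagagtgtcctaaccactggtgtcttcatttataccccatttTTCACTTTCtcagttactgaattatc
Ifi207 (chr1:173741760-173742059, minus strand): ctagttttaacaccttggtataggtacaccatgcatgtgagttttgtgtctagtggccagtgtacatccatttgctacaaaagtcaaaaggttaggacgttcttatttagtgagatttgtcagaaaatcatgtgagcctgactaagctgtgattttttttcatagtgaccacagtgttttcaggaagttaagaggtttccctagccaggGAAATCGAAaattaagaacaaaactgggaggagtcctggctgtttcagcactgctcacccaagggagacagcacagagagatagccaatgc
GAAANNGAA was found in 4 of the 5 members with a window (80%), against 9.76% of 27025 genes with a window and 57.8% of 45 interferon-stimulated genes. It was not particular to the members. Of 12 PYHIN genes with a window, members included, 9 held it (75%), among them the non-members Ifi206, Ifi211 and Ifi213. In Mndal, Ifi203 and Ifi207 the match in the window shown read GAAATCGAA, and it began 36, 35 and 41 bases before the start. Ifi205 held GAAATTGAA at 134 bases before the start and a second match, on the other strand, after it. Ifi202b held none and had instead 1 match to TTCNNNGAA, TTCTCAGAA at 148 bases before the start, a motif found in 9.55% of all genes. The ETS-like word GAGGAAGT was in none of the 5, and in 3.69% of all genes. The windows of Mndal and Ifi203 shared an identical run of 139 bases, those of Ifi205 and Ifi207 one of 31 bases, and Ifi202b shared at most 9 bases with any of the other 4. A match in these letters is a description of the sequence and not of binding.

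The Col1a1fspKO table held 1309 cells with 8647722 UMIs (median 4954 per cell) and that of WT held 1169 cells with 8624469 UMIs (median 5534), and 2 cell barcodes occurred in both. Cells fell into 16 clusters, grouped by markers into 10 classes, named here with the ending "-like". Mono/Macro-like cells made up 20.4% of Col1a1fspKO cells and 23.5% of WT cells, B cells-like 18.9% in each, and Neutrophil-1-like 20.9% and 12.7%. Platelet and stromal markers were at or near 0 in Mono/Macro-like cells, with 1 and 0 UMIs over 3 platelet genes and 5 and 9 UMIs over 6 stromal genes in Col1a1fspKO and WT. Markers of resident macrophages summed to 30.5 and 31.2 CPM (UMIs per 1000000 UMIs of the summed cells) and B cell markers to 108 and 88.9 CPM. Neutrophil-1 markers summed to 1221 and 1257 CPM and erythroid markers to 10457 and 8729 CPM. The part of other cells' RNA in the differences below was not tested. Col1a1 had 3 UMIs in the Col1a1fspKO library and no row in the WT library, and a 3′ tag lies outside the deleted exons, so it checks neither label. S100a4, whose promoter drives the Cre, had 975 CPM in Mono/Macro-like cells of the knockout library and 1082 CPM in those of the control library.

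Over all cells the 7 members together gave 337 CPM in the Col1a1fspKO library and 174 CPM in the WT library, a ratio of 1.94 (1.82 to 2.06). The family did not move as one. Ifi202b, Mndal and BC094916 were more than 2-fold higher in Col1a1fspKO, Ifi203 was 1.60-fold higher (1.45 to 1.77), Ifi204 and Ifi205 had intervals that held 1, and Ifi207 was lower. So 3 of 7 members were past 2-fold higher and 0 past 2-fold lower, where 1.21% and 1.19% of 11109 genes with at least 20 UMIs were past 2-fold higher and lower; since the members were picked on this contrast, nothing is read from the excess. In sums over all cells, more cells of a class and more RNA per cell cannot be told apart, which is why the values by class follow.

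**Figure D1:**
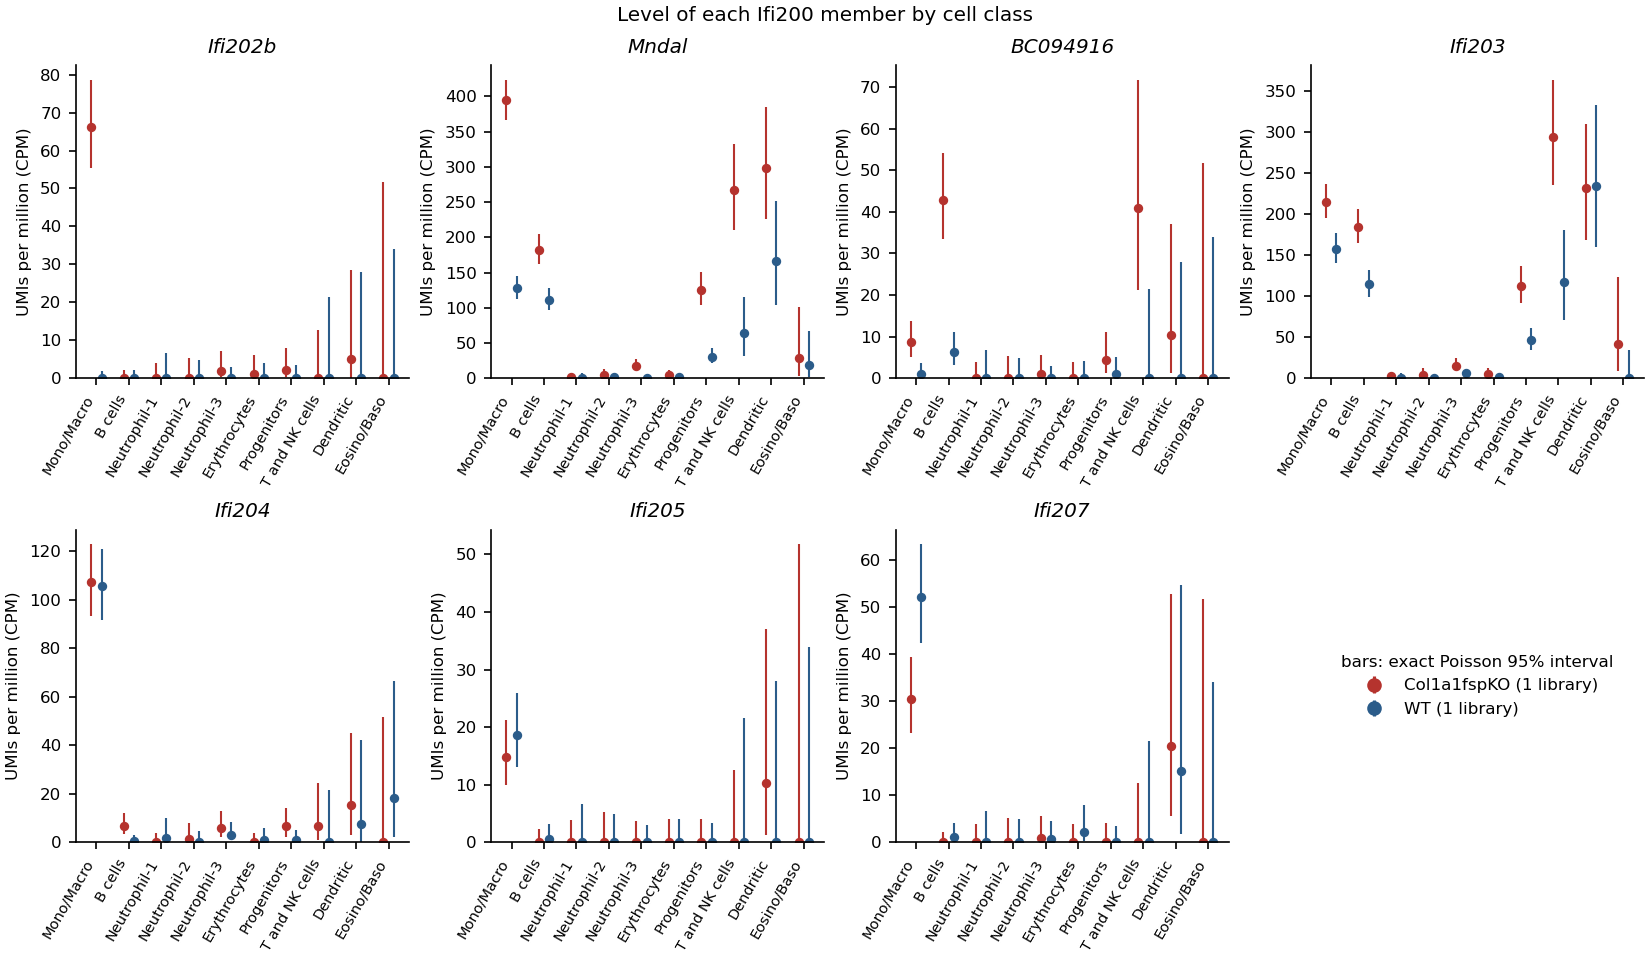
Level of each member (CPM) in the 10 cell classes, with Col1a1fspKO in red and WT in blue; bars are exact Poisson 95% intervals and each point is 1 library. Ifi202b, Ifi204, Ifi205 and Ifi207 stand highest in Mono/Macro-like cells, whereas Mndal and Ifi203 are also seen in B, T and NK, dendritic and progenitor cells.

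Ifi202b was the clearest case. The Col1a1fspKO library held 136 UMIs of it in 100 cells, and the WT table did not list it. Set against a floor of 3 UMIs in the whole WT library, it was at least 45.2-fold higher in Col1a1fspKO. The strain background of the mice of either pool at this stretch of chromosome 1 is not given in the sources used here, so the deletion of Col1a1 and a difference in inherited alleles of the family cannot be told apart, for Ifi202b or for the other genes below. Genes seen in fewer than 3 cells were mostly left out of each table (77 of 12760 rows in Col1a1fspKO and 104 of 12763 in WT stood in fewer), so a WT count of a few UMIs before that step cannot be told from 0. Of the 136 UMIs, 130 (95.6%) fell in Mono/Macro-like cells. Against WT they were at least 42.4-fold higher there by the floor of 3 UMIs (34.0-fold by the exact interval), at 66.2 CPM (55.3 to 78.6). That level was 73.7-fold (32.9 to 204) over all other cells of that library, or 6.20 on the log2 scale, and 4.51 on that scale when each cell was classed by its own marker score. The remaining 6 UMIs were spread over neutrophil, progenitor, erythroid and dendritic cells, and none was found in 248 B cells-like or 58 T and NK cells-like. With classes taken from clusters, the Ifi202b signal thus came mostly from 1 class in 1 library. It was not carried by a few cells, since the highest cell held 7 UMIs (5.15% of the total).

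Of 267 Mono/Macro-like cells from Col1a1fspKO, 94 held at least 1 Ifi202b UMI (35.2%, 29.5 to 41.3), and of 275 from WT 0 did, which, at a floor of 3 cells, allows a share of up to 1.09% of cells with a UMI among the rows as deposited. Thinning every cell to 2500 UMIs, so that both libraries were read at 1 depth, left 40 of 267 cells (14.98%) and 0 of 275. Among the Ifi202b-positive cells 96.8% also held a Mndal UMI, 87.2% an Ifi203 UMI and 60.6% an Ifi204 UMI, against 83.8%, 60.7% and 37.6% of the Mono/Macro-like cells without Ifi202b. The former had a median of 6220.5 UMIs and the latter of 5938, and the part of this gap in the shares was not tested.

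Mndal was the member with the most UMIs, 1350 in Col1a1fspKO and 514 in WT, and unlike Ifi202b it was found in both libraries and in many classes. In Mono/Macro-like cells its level was 394 CPM (367 to 423) for Col1a1fspKO against 128 CPM (112 to 145) for WT, and the ratio was 3.08 (2.67 to 3.57). The 2 intervals lay far apart, and the library labelled Col1a1fspKO was higher in each of the 5 classes with at least 20 UMIs. The ratio was 4.16 (2.20 to 8.67) in T and NK cells-like, 4.11 (2.77 to 6.25) in Progenitors-like, 1.79 (1.08 to 3.07) in Dendritic-like and 1.64 (1.36 to 1.97) in B cells-like. The ratio was thus lowest in B cells-like and dendritic cells, although no test of the difference between classes could be run. In Col1a1fspKO its order ran from Mono/Macro-like and Dendritic-like (298 CPM), whose intervals overlapped, over T and NK cells-like (267) and B cells-like (182) to Progenitors-like (126). In WT the first 4 were Dendritic-like (167), Mono/Macro-like (128), B cells-like (111) and T and NK cells-like (64.2), and each overlapped the next.

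Mndal was detected in 88.4% of the Mono/Macro-like cells from Col1a1fspKO and 53.8% of those from WT. As a background of free RNA, its UMIs were in 4 of 84 and 2 of 79 Erythrocytes-like cells (4.76% and 2.53%), at median depths of 9209.5 and 11118 UMIs against 5951 and 5799 in Mono/Macro-like. Neutrophil-1-like cells, chosen as a second background after their values were seen, held it in 1 of 274 and 0 of 149 cells (median depths 3241 and 3536). At 2500 UMIs per cell the Mono/Macro-like shares were 56.6% and 29.5%, a difference of 27.1 percentage points (18.9 to 34.8). In B cells-like the as-deposited shares were near each other, 58.5% and 56.1%, but the WT cells were deeper (median 5469 against 4325.5 UMIs), and at 1 depth they were 39.1% and 29.9% (difference 0.616 to 17.6 points). Neutrophil-3-like cells, whose leading genes included Fcnb, Ms4a3 and Elane, held 17 Mndal UMIs in the knockout library and 1 in the control library (ratio 20.7, 3.25 to 867).

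BC094916 was rare and differed from the other members in where it was found. Its totals were 106 UMIs for Col1a1fspKO and 14 for WT, so the ratio was 7.55 (4.31 to 14.3). B cells-like held 70 and 11 of these, 42.9 CPM (33.5 to 54.2) against 6.24 CPM (3.11 to 11.2), a ratio of 6.88 (3.62 to 14.4). T and NK cells-like held 12 UMIs in Col1a1fspKO and 0 in WT, at least 2.34-fold higher by the floor of 3 UMIs and 1.63-fold by the exact interval. Mono/Macro-like cells held 17 and 2 (ratio 8.32, 1.98 to 74.3). Unlike the other 6 members, its Mono/Macro-like level was not above that of all other cells of its library, at 8.65 against 13.3 CPM for Col1a1fspKO. Within B cells-like the levels in Col1a1fspKO were 32.3 CPM in the cluster led by Myl4 and Igll1, 33.5 CPM in the cluster led by Ms4a1 and Jchain, 142 CPM in the cluster led by 4930597A21Rik and Dnajc7, and 140 CPM in the small cluster led by Vpreb1 and Dntt, genes of early B cell precursors. The last 2 rested on 16 and 6 UMIs. A UMI of BC094916 was seen in 54 of 248 B cells-like of Col1a1fspKO (21.8%) and 11 of 221 of WT (4.98%), and in none of the erythroid or Neutrophil-1-like cells.

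Ifi203 followed the same cells as Mndal. Across the clusters with at least 20 cells the levels of both, on the log2(CPM + 10) scale, had a Pearson r of 0.97 in Col1a1fspKO (14 clusters) and 0.99 in WT (13 clusters), which is a description, since the clusters share their library and the genes may share reads. In Mono/Macro-like cells Ifi203 reached 215 CPM (195 to 236) for Col1a1fspKO against 158 CPM (140 to 176) for WT, so the ratio was 1.36 (1.17 to 1.59). The ratio was 2.52 (1.54 to 4.33) in T and NK cells-like, 2.43 (1.72 to 3.48) in Progenitors-like, 2.61 (1.004 to 7.58) in Neutrophil-3-like and 1.61 (1.34 to 1.94) in B cells-like. Dendritic-like cells, led by the plasmacytoid genes Siglech, Bst2 and Tcf4, held it at 231 CPM and 235 CPM, with a ratio of 0.985 (0.610 to 1.61). Ifi203 was thus higher in Col1a1fspKO in 5 of 6 classes compared and at a near equal level in dendritic cells. At 1 depth its UMIs were found in 40.8% of Mono/Macro-like cells of Col1a1fspKO and 31.6% of WT.

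Ifi204, Ifi205 and Ifi207 had most of their UMIs in Mono/Macro-like cells of both libraries. The shares were 87.9%, 93.5% and 92.3% in Col1a1fspKO and 94.9%, 97.3% and 93.5% in WT. By level, the intervals of Ifi205 and Ifi207 in these cells overlapped those in Dendritic-like cells in both libraries. Dendritic-like cells held 4 UMIs or fewer of each in either library. Outside Mono/Macro-like cells Ifi204 had 29 UMIs in Col1a1fspKO and 11 in WT (4.34 and 1.64 CPM). In Mono/Macro-like cells Ifi204 had 107 CPM (93.4 to 123) for Col1a1fspKO and 106 CPM (91.5 to 121) for WT, with a ratio of 1.02 (0.835 to 1.24). Ifi205 had 29 and 36 UMIs, 14.8 and 18.7 CPM, with a ratio of 0.789 (0.466 to 1.32). Ifi207 was the member that ran the other way, with 30.5 CPM (23.3 to 39.3) for Col1a1fspKO against 52.0 CPM (42.3 to 63.2) for WT, 1.70-fold (1.22 to 2.39) higher in WT. Its UMIs were found in 18.0% of Mono/Macro-like cells of Col1a1fspKO and 27.6% of WT, and at 1 depth in 6.37% and 13.8%. Across the clusters these 3 genes and Ifi202b had pairwise r values from 0.87 to 0.97 in Col1a1fspKO. In Mono/Macro-like cells 2 of 6 members with at least 20 UMIs were past 2-fold higher and 0 past 2-fold lower, against 1.77% and 1.96% of 8100 genes. In B cells-like 1 of 3 was past 2-fold higher and 0 lower, against 1.76% and 2.01% of 8141 genes.

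**Figure D2:**
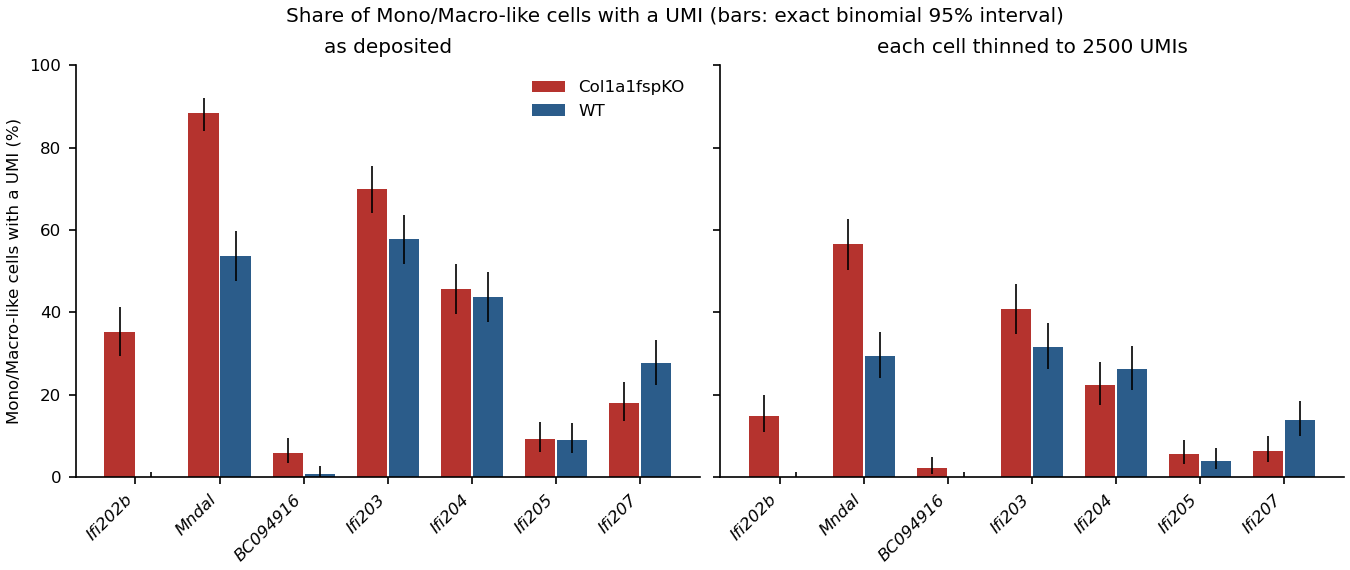
Share of Mono/Macro-like cells with at least 1 UMI of each member, in percent, as deposited and after thinning each cell to 2500 UMIs, with Col1a1fspKO in red and WT in blue; bars are exact binomial 95% intervals. Ifi202b is at 0 in WT at both depths, Mndal is in more Col1a1fspKO cells and Ifi207 in fewer.

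Mono/Macro-like cells were not uniform. At a resolution of 1.2 they split into 4 clusters, led by Apoe and Sirpb1c (with Cx3cr1, a gene of patrolling monocytes), by Fn1 and Wfdc17 (with Ccr2, a gene of inflammatory monocytes), by Ass1 and Lgals1, and by Klf4 and Ass1. Ifi202b was found in all 4 clusters of Col1a1fspKO, at 93.0, 81.9, 46.9 and 44.5 CPM in that order, and in none of WT. Mndal was higher in Col1a1fspKO in all 4, with ratios of 2.80 (2.17 to 3.64), 2.81 (2.10 to 3.797), 2.86 (2.14 to 3.86) and 4.70 (3.25 to 6.99). Both differences were therefore present in each of the 4 clusters.

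Ifi204 fell along the same series of clusters in both libraries. It ran from 192 CPM in the Apoe-led cluster to 53.4 CPM in the Klf4-led one in Col1a1fspKO, and from 218 to 35.1 CPM in WT, and none of its 4 ratios had an interval that left out 1. Ifi205 was different. Its lower level in Col1a1fspKO was in the Apoe-led cluster, with 9 UMIs against 27 (16.7 and 53.5 CPM, ratio 0.313, 0.130 to 0.686), while the Ass1-led cluster held 7 against 1 (ratio 5.94, 0.763 to 268). Ifi207 had a ratio of 0.516 (0.313 to 0.834) in the Apoe-led cluster and 0.639 (0.345 to 1.15) in the Fn1-led cluster, and under 10 UMIs per library in the other 2. Ifi203 was higher in the Fn1-led cluster of Col1a1fspKO (315 against 160 CPM, ratio 1.97, 1.47 to 2.65) and close to equal in the Ass1-led cluster (125 against 135 CPM, ratio 0.925, 0.653 to 1.31).

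**Figure D3:**
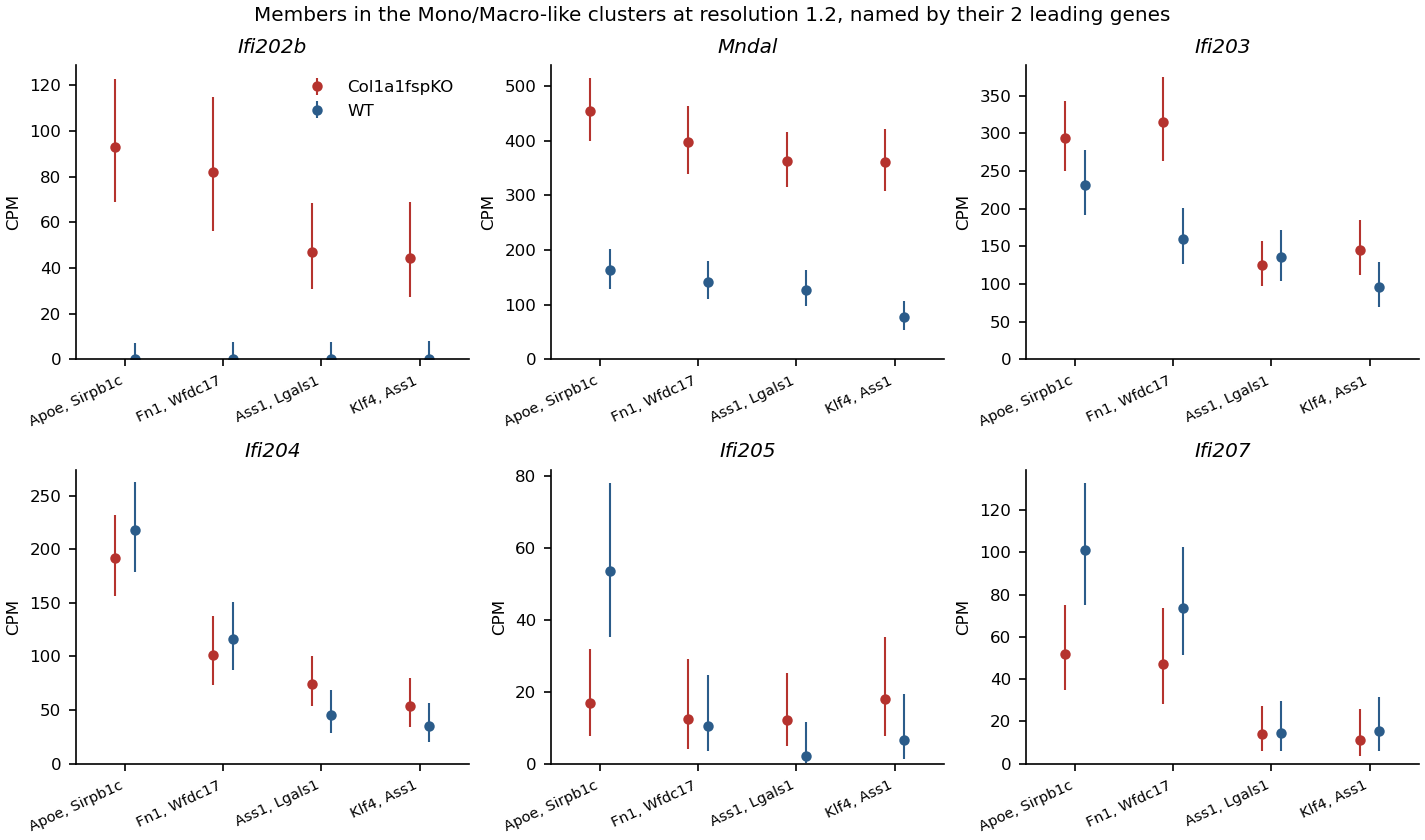
Level (CPM) of 6 members in the 4 Mono/Macro-like clusters found at resolution 1.2, each named by its 2 leading genes, with Col1a1fspKO in red and WT in blue and exact Poisson 95% intervals. Ifi202b and Mndal are higher in Col1a1fspKO in every cluster, and Ifi205 and Ifi207 are lower in the Apoe-led cluster.

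The other PYHIN genes were not among the members and were given by the tables as Aim2, Gm4955 (now Ifi206), Pydc4 (Ifi213), Pyhin1 (Ifi209), Pydc3 (Ifi208) and Mnda (Ifi211), so the tables listed 13 family genes in all. Over all cells 2 of the 5 with at least 20 UMIs were past 2-fold lower in Col1a1fspKO and 0 past 2-fold higher, beside 1.19% and 1.21% of all genes compared. Ifi206 had 7 UMIs against 61, 8.74-fold (3.99 to 22.6) higher in WT. Ifi213 had 3 and 35 UMIs, 11.7-fold (3.69 to 59.4) higher in WT. These genes thus went the opposite way from Ifi202b, Mndal and BC094916. In Mono/Macro-like cells all 5 were lower in Col1a1fspKO with intervals below 1. Ifi206 had 1 UMI there against 29. Ifi213 had 0 against 28, at least 9.53-fold lower by the floor of 3 UMIs and 7.25-fold by the exact interval. Ifi209 stood at 46.8 against 103 CPM (ratio 0.455, 0.351 to 0.585), Aim2 at 20.4 against 31.7 CPM (ratio 0.642, 0.420 to 0.972) and Ifi211 at 88.5 against 134 CPM (ratio 0.660, 0.542 to 0.803). In B cells-like Ifi209 was near equal (112 and 102 CPM, ratio 1.09, 0.885 to 1.35), and Aim2 was higher in Col1a1fspKO (24.5 and 9.07 CPM, ratio 2.70, 1.48 to 5.17). Ifi208 had 10 and 7 UMIs in all and was not compared.

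Among placed genes compared over all cells, Ifi206, Ifi213, Ifi209 and Ifi207, farther left, were lower in Col1a1fspKO with intervals below 1. Mndal, Ifi203 and Ifi202b, farther right, were higher with intervals above 1. The lower Ifi211, whose separate level is uncertain as given above, lay among these. Aim2, Ifi204 and Ifi205 had intervals that held 1. The part of the strain background at this locus, which is not given, was not tested. From left to right the log2 ratios over all cells were 0.22 for Aim2, -3.13 for Ifi206, -3.55 for Ifi213, -0.45 for Ifi209 and -0.72 for Ifi207. They went on with 0.16 for Ifi204, 1.39 for Mndal, -0.40 for Ifi211, 0.68 for Ifi203, at least 5.50 by the floor of 3 UMIs for Ifi202b and -0.26 for Ifi205. Over all cells Ifi211, which lies between Mndal and Ifi203, was lower while both its neighbours were higher. Outside Mono/Macro-like cells Ifi211 was higher in Col1a1fspKO, with 28 UMIs against 7 in WT (4.19 and 1.04 CPM). The 13 genes together gave 412 CPM against 277 CPM, and the ratio was 1.49 (1.41 to 1.57), and in Mono/Macro-like cells 993 and 761 CPM, a ratio of 1.31 (1.22 to 1.40). Mndal made up 39.7% of the family's UMIs in Mono/Macro-like cells of Col1a1fspKO and 16.8% in WT, whereas Ifi211 made up 8.91% and 17.6%, and Ifi209 4.71% and 13.5%. How far UMIs of one relative were counted for another was not tested.

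**Figure D4:**
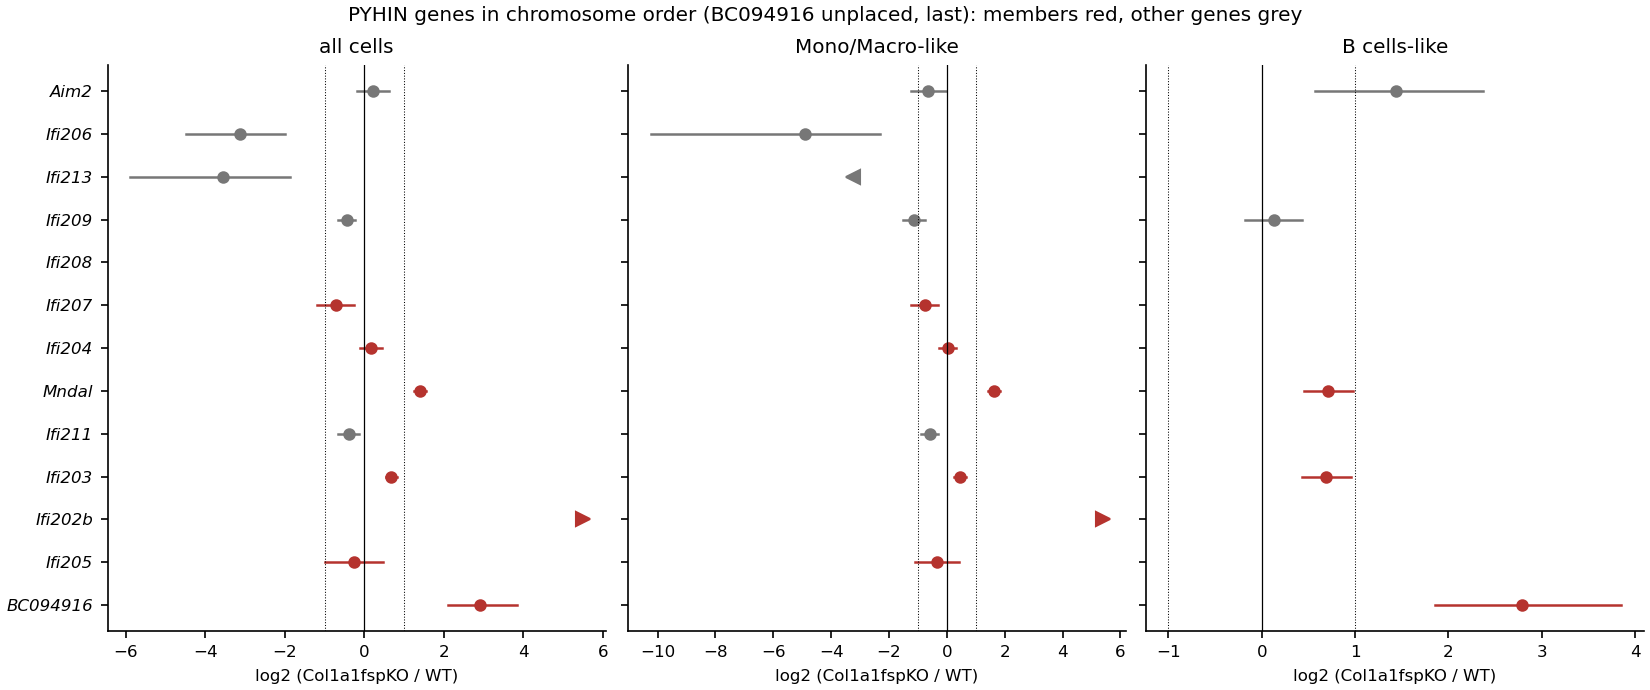
Log2 ratio of Col1a1fspKO over WT for the PYHIN genes with at least 20 UMIs, in chromosome order from top to bottom (BC094916, with no position, last), over all cells, in Mono/Macro-like cells and in B cells-like; lines are exact 95% intervals, arrowheads are bounds where 1 library was at 0, members are red and other genes grey. Mndal and Ifi203 lie right of 0 in all 3 panels, with Ifi211 between them on the left where it was compared.

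Other genes near the family were read in the same way. Within 2 Mb of the members' span 26 genes outside the family had at least 20 UMIs, with a median log2 ratio of -0.09 over all cells, and 1 was past 2-fold higher and 6 past 2-fold lower in Col1a1fspKO, beside 1.21% and 1.19% of all genes compared. The 3 highest were Opn3 (chr1:175662421-175692901; 23 and 8 UMIs, ratio 2.87), the chemokine-binding receptor gene Ackr1 (ratio 1.67) and Pea15a (ratio 1.56). The 3 lowest were Slamf8 (chr1:172581377-172590873; 9 and 40 UMIs, ratio 0.224, 0.0957 to 0.470), Gm37065 (chr1:171913532-171919356; 29 and 174 UMIs, ratio 0.166, 0.108 to 0.247) and Fcer1a (chr1:173221269-173227232; 23 and 148 UMIs, ratio 0.155, 0.0953 to 0.242). Fcer1a encodes the IgE receptor of basophils and mast cells and is a leading gene of Eosino/Baso-like cells, of which there were 9 in Col1a1fspKO and 18 in WT. The part of these cell numbers in its ratio was not tested.

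Since the family is known for interferon control, a list of 57 interferon-stimulated genes, of which 56 were listed in the tables, was read beside it. In Mono/Macro-like cells 42 of 52 compared genes were higher in Col1a1fspKO and 10 lower, with a median log2 ratio of 0.28, where 3941 of 8100 genes were higher and the median was -0.01. Of the 52, 6 were past 2-fold higher and 0 past 2-fold lower, beside 1.77% and 1.96% of all 8100 genes compared. Intervals lay above 1 for 14 and below 1 for 0, but the share of all genes with such intervals was not computed. The largest were Gbp2, an interferon-induced GTPase (42 and 11 UMIs, ratio 3.74, 1.89 to 8.05), Phf11d (27 and 9, ratio 2.94, 1.34 to 7.10) and the chemokine gene Cxcl10 (26 and 9, ratio 2.83, 1.28 to 6.86). The lowest were Ifih1, an RNA sensor (15 and 26 UMIs, ratio 0.565, 0.278 to 1.11), Mx1 (0.734, 0.375 to 1.41) and Slfn5 (0.767, 0.455 to 1.28). The list was also higher over all cells (48 of 55, median 0.37) and in B cells-like (27 of 34, median 0.27). Of all genes compared, 4684 of 11109 and 4022 of 8141 were higher there. The list was chosen with earlier results of these data known, so nothing is read from its excess. In the same Mono/Macro-like cells Ifi202b, Mndal and Ifi203 were higher, and Ifi207 and the 5 other PYHIN genes compared were lower. Ifi204 and Ifi205 had intervals that held 1. The part of interferon in any of these values was not tested.

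In the pathway around the family the median ratios were smaller. Of 14 interferon receptor and signalling genes compared in Mono/Macro-like cells none was past 2-fold. Among all genes compared there 1.77% were past 2-fold higher and 1.96% lower, so none in so short a list is not read as a result. The median log2 ratio was 0.11. Ifnar1, a chain of the type I interferon receptor, was highest (41.7 and 28.1 CPM, ratio 1.49, 1.04 to 2.14), before Irf1 (1.38, 0.910 to 2.09) and Jak2 (1.34, 0.795 to 2.29). Stat2 was lowest (9.16 and 16.1 CPM, ratio 0.568, 0.299 to 1.05), followed by Ifnar2 (0.902, 0.755 to 1.08) and Jak1 (0.922, 0.707 to 1.202). Of 17 genes of DNA sensing and the inflammasome none was past 2-fold either, again near the share of all genes, and the median was 0.06. Pycard, the adaptor of the Aim2 inflammasome, was at 240 CPM for Col1a1fspKO and 343 CPM for WT (ratio 0.700, 0.621 to 0.789), and the gene of the DNA sensor cGAS, listed as Mb21d1, at 17.8 and 10.9 CPM (ratio 1.63, 0.924 to 2.95). Il18 (1.48, 0.949 to 2.34), Il1b (1.27, 0.515 to 3.24), Ikbke (0.746, 0.364 to 1.50) and Tlr7 (0.681, 0.336 to 1.35) had intervals that held 1. Monocyte maturation genes had a median of 0.03 over 13 genes, with Eno3 (1.96, 0.791 to 5.28), Nr4a1 (1.61, 0.852 to 3.14) and Ace (1.50, 0.782 to 2.94) highest. Chil3, a gene of classical monocytes that was also a leading gene of Neutrophil-3-like cells, was lowest (494 and 946 CPM, ratio 0.522, 0.482 to 0.564). Next came Fn1 (0.775, 0.715 to 0.839) and Cebpb (0.780, 0.735 to 0.827). Ccr2, named here after its values were seen, was the 1 gene of this list with an interval above 1 (1685 and 1324 UMIs, ratio 1.25, 1.16 to 1.34), so genes of inflammatory monocytes did not move one way. The part of such shifts among monocytes in the members' values was not tested.

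**Figure D5:**
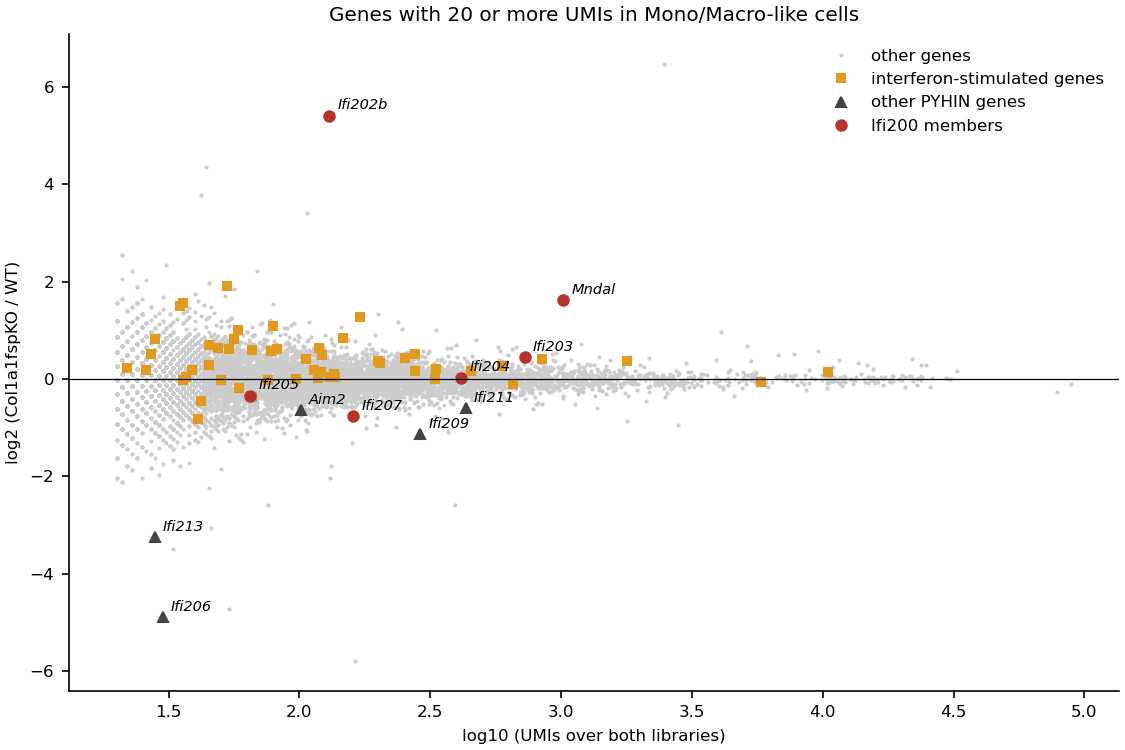
Each point is a gene with at least 20 UMIs in Mono/Macro-like cells, placed by its UMIs over both libraries (log10) and its log2 ratio of Col1a1fspKO over WT; members are red circles, other PYHIN genes dark triangles and interferon-stimulated genes orange squares, and Ifi202b and Ifi213 are drawn at their bounds. Ifi202b and Mndal lie above the cloud, Ifi206 and Ifi213 below it, and 42 of the 52 interferon-stimulated genes above 0.

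The genes most like the family in pattern were sought over 27 pseudobulks (the summed cells of 1 cluster in 1 library) among 6164 genes with at least 200 UMIs, on the log2(CPM + 10) scale. The summed 7 members were most like Cd48, a leukocyte adhesion gene (Pearson r 0.97), Psmb10, an immunoproteasome subunit (0.95), Faim (0.95), Nsa2 (0.94) and Oxa1l (0.93). Ifi202b alone, over the 14 pseudobulks of Col1a1fspKO, was most like Pid1 (0.99), Stxbp6 (0.98), Naaa (0.98), Ccdc109b (0.98) and the monocyte transglutaminase gene F13a1 (0.97). These values describe which clusters hold the genes.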

How the data were processed

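Single-cell RNA from the bone marrow of 1 Col1a1fspKO and 1 WT library (2 pooled mice each) was measured. The authors aligned reads with Cell Ranger (version not given in the sources used here) to mm10 and deposited filtered tables of UMI counts per gene and cell. Their processing notes name Seurat 3.5.3, and their limits on cells were 200 to 7000 genes and under 10% mitochondrial reads.

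Counts were used as deposited and clustered (27 principal components, resolution 0.8) with Seurat 5.3.0 in R 4.3.3, leaving 99 genes (PYHIN, interferon, Ly6 and sex-linked) out of the 2000 variable genes. Clusters were named from a marker list. Scrublet called 5 doublets per library, which were kept. Levels are UMIs per 1000000 UMIs of the summed cells (CPM) with exact Poisson intervals, ratios carry exact conditional binomial intervals, shares Clopper-Pearson intervals and their differences Newcombe intervals (95%; Python 3.11.15, scipy 1.17.1). A library at 0 was set to a floor of 3 UMIs, for a bound only. That bound leaves out the counting error of the other library. On simulated Poisson counts over all cells (11109 genes, 200 changed) the ratio intervals covered 96.0% of unchanged and 96.5% of changed genes. The intervals assume such counts, so this checks their calculation only. It does not cover UMIs clumped in cells or differences between mice.

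The members and gene lists were chosen with earlier results of these data known. Genes named beside the members were all other PYHIN genes listed, the 3 highest and 3 lowest of each list in Mono/Macro-like cells and of the neighbours within 2 Mb, and the 5 genes most like the family in pattern. Alternatives were other clusterings and scalings, a shared UMI minimum, doublets left out, thinning to 2500 UMIs and a lower gene minimum.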

Additional observations from a re-analysis of the deposited data

Results flagged for a closer look

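Aim2 moved in opposite directions in different cells. Its ratio of Col1a1fspKO over WT was 2.70 (1.48 to 5.17; 40 and 16 UMIs) in B cells-like and 2.66 (1.10 to 7.06; 18 and 8 UMIs) in Progenitors-like, but 0.642 (0.420 to 0.972; 40 and 61 UMIs) in Mono/Macro-like. With 1 library per genotype the difference between the classes was not tested. Among classes with at least 20 UMIs, no other PYHIN gene had intervals on both sides of 1 in 2 classes. Below that cut, Ifi211, lower in Mono/Macro-like cells, had 7 UMIs in Col1a1fspKO and 1 in WT in Progenitors-like (ratio 8.26, 1.06 to 372).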

How the results depend on the processing

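No paired analysis was possible because the labels give no replicate numbers beyond 1 library per genotype, and for the same reason no library could be left out. Of 256 recomputed ratios between libraries (36 gene and cell class pairs), 251 kept their direction and 3 moved outside the interval of the value given; those that turned had intervals that held 1 (Aim2 and Ifi204 over all cells, Ifi204 in Mono/Macro-like, Ifi209 in B cells-like). The mean of single-cell CPM lowered the log2 ratio of the 7 members over all cells from 0.95 to 0.80, and gave -0.16 for Ifi204 in place of 0.16. Assigning each cell by its marker score lowered the log2 ratio of Ifi202b in Mono/Macro-like over other cells from 6.20 to 4.51. The causes were not tested. In Mono/Macro-like cells the log2 ratio of Mndal stayed between 1.57 and 1.64 and that of the 7 members between 0.79 and 0.87 under the alternatives run. In Mono/Macro-like cells thinning lowered the difference in the share of cells for Ifi202b to 14.98 points, for Mndal to 27.1 and for BC094916 to 2.25. In B cells-like it lowered that of BC094916 from 16.8 to 11.4 points (6.52 to 16.5). Low counts limit Ifi205, BC094916, Ifi206, Ifi208 and Ifi213.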
